A study of Homo sapiens with 15 samples.

Results

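Integrins and laminins are the receptors and the ligands by which cells hold to the basement membrane. They were followed here in NTERA2, an established human embryonal carcinoma cell line that grows as pluripotent-like cells and can differentiate. The members were every row of the deposited gene count table whose symbol names an integrin alpha chain, an integrin beta chain or a laminin chain. The rule found 38 of 28207 gene symbols, of which 18 were integrin alpha chains, 8 integrin beta chains and 12 laminin chains, and it used no measured value. All 38 passed the filter on low counts and were tested among 18760 genes. The cells, in medium with 10% serum, received siRNA 2 times over 7 days, and total RNA was sequenced. The 5 groups of 3 libraries were a control siRNA (siControl) and siRNAs against IGF2BP1, SRF, FOXM1 and IQGAP3 (siIGF2BP1, siSRF, siFOXM1 and siIQGAP3). All groups shared the line, the serum and the treatment with siRNA, and the control differed only in its siRNA as far as the labels say. The labels do not tie the libraries to separate cultures, and the p-values therefore reflect how far these libraries scatter, a scatter that may be technical. The deposited columns carry no replicate number, and libraries are called 1, 2 and 3 only to name them.

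An integrin is a pair of 1 alpha and 1 beta chain. ITGB1 pairs with the alpha chains that bind collagens, laminins or fibronectin, ITGB4 pairs with ITGA6 in the hemidesmosomes that tie epithelial cells to laminin, and ITGB2 serves leukocytes. A laminin is a trimer of 1 alpha, 1 beta and 1 gamma chain, and its alpha chain carries the main integrin binding sites. In human pluripotent cells, the laminin of LAMA5, LAMB1 and LAMC1 and the receptor of ITGA6 and ITGB1 are the well-known pair for attachment. LAMA3 and LAMB3 are typical of epithelia such as skin, LAMA2 of muscle and nerve, and LAMA4 of vessels and mesenchymal tissues.

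Library totals ran from 35275570 to 44996064 counts. The target of each siRNA fell in its own group, to 20.8% of siControl for IGF2BP1, 7.51% for SRF, 20.6% for FOXM1 and 48.0% for IQGAP3 (edgeR quasi-likelihood test, adjusted p = 5.23e-05, 3.09e-07, 0.00199 and 0.0138). Other targets fell too. In siIGF2BP1 SRF was at 7.97%, FOXM1 at 30.0% and IQGAP3 at 17.9% of siControl. FOXM1 was at 29.3% and IQGAP3 at 19.7% in siSRF, and IQGAP3 was at 6.70% in siFOXM1. IQGAP3 was thus lower in each of these groups than in siIQGAP3, and SRF was about as low in siIGF2BP1 as in siSRF. Library 3 stood apart in 4 groups. The chi-square statistic per gene was 451 and 558 between siControl library 3 and the other siControl libraries, against 16.9 between those 2, and 124 to 267 against 2.28 to 4.48 in siIGF2BP1, siSRF and siFOXM1. In siIQGAP3 it was 1.82 to 4.40 for every pair. On the first principal component, with 62.8% of the variance, siControl library 3 scored 131 and the siIQGAP3 libraries 157, while every other library scored between -85.0 and -10.3. Markers moved along the same lines. The summed level of 10 pluripotency genes, each of which had counts in every library, was 2221, 1763 and 4501 CPM (the count relative to the scaled library total) in the siControl libraries, 392 to 499.8 in siIGF2BP1, 401 to 494 in siSRF, 235 to 1298 in siFOXM1 and 4842 to 4976 in siIQGAP3. Among them POU5F1 and NANOG, which define this cell state, fell in every knockdown, while in siIQGAP3 L1TD1 and DNMT3B, 2 others of the 10, rose and the median log2 fold change of the 10 was 1.25. The sum of 8 fibroblast genes, of which DCN was at 0 in 1 library, was 7662, 8941 and 1953 CPM in siControl, 2722 to 2750.4 in siIQGAP3 and 5498 to 11262, 4938 to 9592 and 7246 to 8866 in siIGF2BP1, siSRF and siFOXM1. COL1A1 and COL3A1 had the highest levels in that sum, up to 5455 and 3837 CPM. Gene by gene, 0 of the 8 passed in siIGF2BP1, siSRF or siFOXM1. In siIQGAP3 4 fell and 0 rose, where 21.7% of all genes fell, and the median log2 fold change of the 8 was -2.03. The part of these differences in the results below was not tested, and in bulk RNA fewer cells of a type and less RNA per cell cannot be told apart.

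The RefSeq promoter table (GRCh38.p14) held 26 of the 38 genes in 33 windows. Since SRF and FOXM1 are transcription factors, the 250 bases before the start of each were searched on both strands for the CArG box known for SRF, for a forkhead core, TGTTTA, and for the CHR element, TTTGAA, of cell cycle promoters, each counted whether or not it overlapped another. The CArG box was in 1.16% of all 35116 promoters and, among the members, in that of ITGB6. The forkhead core was in 11% of all promoters and in those of ITGA6, ITGB1, ITGB6, LAMB3 and LAMB4. The CHR letters were in 13.3% of all and in those of ITGAM, ITGAV, ITGB5, LAMA2 and LAMB1. These are matches of letters, not sites of binding. Shown are a window of ITGA6 (chr2:172427336-172427585, plus strand) and that of LAMA4 (chr6:112254568-112254817, minus strand), the 2 genes with a promoter entry that passed the test in every knockdown, and that of LAMA2 (chr6:128882888-128883137, plus strand), the laminin chain with the largest fall. Capitals mark the CHR letters, which lie on the opposite strand in LAMA2. The windows of ITGA6 and LAMA4 printed hold none of the 3 motifs, while the forkhead core of ITGA6 lies in the other window of that gene. That other window ends before the GENCODE v29 start of ITGA6 (172427354), while most of the printed window lies past that start. The printed LAMA4 window lies wholly inside the gene, which begins at 112254939 on the minus strand. These 2 windows thus stand before RefSeq starts within the gene.
ITGA6: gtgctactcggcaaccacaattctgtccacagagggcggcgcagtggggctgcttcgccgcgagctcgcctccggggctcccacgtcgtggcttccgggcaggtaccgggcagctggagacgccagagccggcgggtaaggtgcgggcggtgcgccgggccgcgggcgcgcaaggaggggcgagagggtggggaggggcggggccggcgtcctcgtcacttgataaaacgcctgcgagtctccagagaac
LAMA4: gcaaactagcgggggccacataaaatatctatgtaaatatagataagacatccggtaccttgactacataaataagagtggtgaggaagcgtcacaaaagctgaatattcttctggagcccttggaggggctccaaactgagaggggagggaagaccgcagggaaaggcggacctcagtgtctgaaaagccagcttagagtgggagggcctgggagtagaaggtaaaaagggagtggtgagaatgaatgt
LAMA2: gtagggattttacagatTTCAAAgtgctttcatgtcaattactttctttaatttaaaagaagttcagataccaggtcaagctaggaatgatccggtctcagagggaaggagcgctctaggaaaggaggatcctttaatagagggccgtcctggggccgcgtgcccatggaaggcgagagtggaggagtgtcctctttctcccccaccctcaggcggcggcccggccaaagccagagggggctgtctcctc

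In siControl the chains of the laminin and receptor named above for pluripotent cells were among the most abundant. Per kilobase of exon (GENCODE v29 lengths, which all 38 had), LAMC1 was highest at 95.4 ± 39.0 CPM per kb (SD, n = 3). ITGB1 at 53.4 ± 29.9, LAMB1 at 50.3 ± 21.2, LAMA5 at 40.3 ± 11.7 and ITGA5, the fibronectin receptor chain, at 34.7 ± 8.598 CPM per kb followed. The library ranges of neighbours among these 5 overlapped. ITGA6 ranked 9 at 11.2 ± 1.998 CPM per kb, and its partner ITGB4 ranked 20 at 1.95 ± 0.287. LAMA4 and LAMB4 closed the order, at 0.0323 ± 0.00924 and 0.0237 ± 0.00656 CPM per kb.

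**Figure D1:**
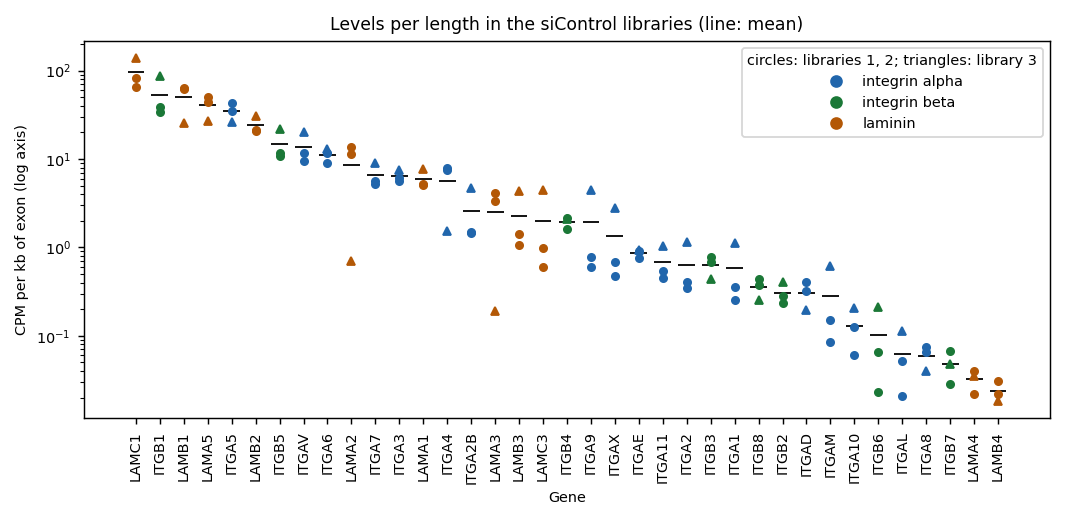
Level of 37 of the 38 genes in the 3 siControl libraries, in CPM per kb of exon on a log axis, ordered by mean. LAMC1 lies at the top with a mean of 95.4 and LAMB4 at the bottom with 0.0237, and the spread between the libraries is wide for many genes.

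In each of the first 3 knockdowns 3 of the 38 members, 7.89%, passed the test. In siIGF2BP1 1 of 38 rose and 2 fell, where 1.62% of all genes passed (0.288% higher and 1.33% lower). In siSRF it was also 1 higher and 2 lower against a background of 1.57% (0.368% and 1.2%), and in siFOXM1 1 and 2 against 1.12% (0.288% and 0.832%). Each time the gene that rose was LAMA4 and those that fell were ITGA6 and ITGB4. An unadjusted p under 0.05 by edgeR was found for 17, 15 and 11 of the 38, beside 15.1%, 14.5% and 12.5% of all genes. In siIQGAP3 4 rose (ITGA6, ITGA7, ITGA10 and LAMA4) and 9 fell (ITGB4, ITGA2B, ITGB3, ITGAD, ITGB2, LAMA2, LAMA3, LAMA5 and LAMC1). These 13 are 34.2% of the members, near the 32.5% of all genes that passed there (10.8% higher and 21.7% lower). The 4 comparisons share the siControl libraries, so a gene in all 4 is not 4 independent results. In 25 members no comparison with siControl passed. With the third siControl, siIGF2BP1, siSRF and siFOXM1 libraries left out, the members called were 30, 29, 27 and 31 in siIGF2BP1, siSRF, siFOXM1 and siIQGAP3, beside 50.7%, 55.8%, 54.6% and 82.7% of all genes. With siControl library 3 alone as the control, 8 of 38 were called in siIQGAP3, all lower, beside 10.8% of all genes in that setting (3.63% higher and 7.2% lower).

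**Figure D2:**
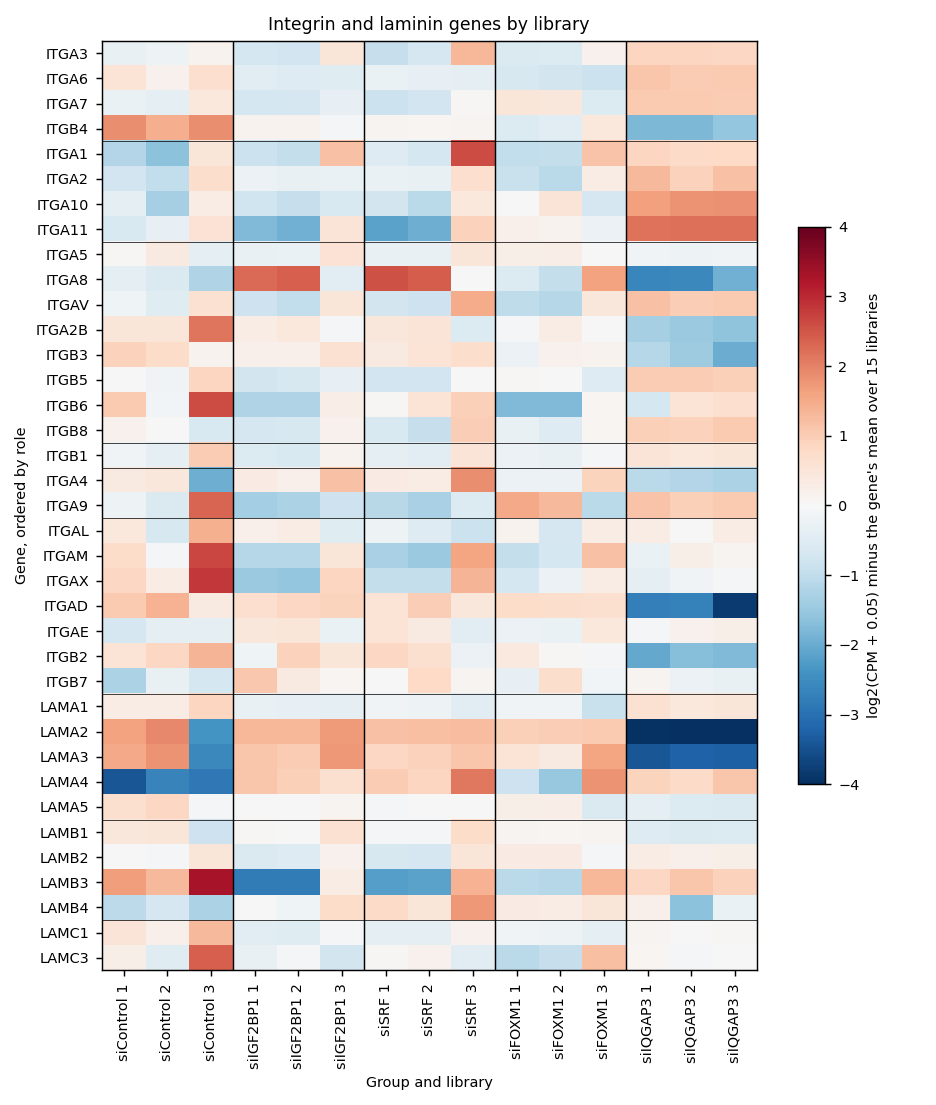
Level of 37 of the 38 genes in each of the 15 libraries, as log2(CPM + 0.05) minus the mean of the gene over all libraries, with colours from -4 to 4. The rows of LAMA2 and LAMA3 are low in siIQGAP3 and in siControl library 3, and LAMA4 is low in all siControl libraries.

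**Figure D3:**
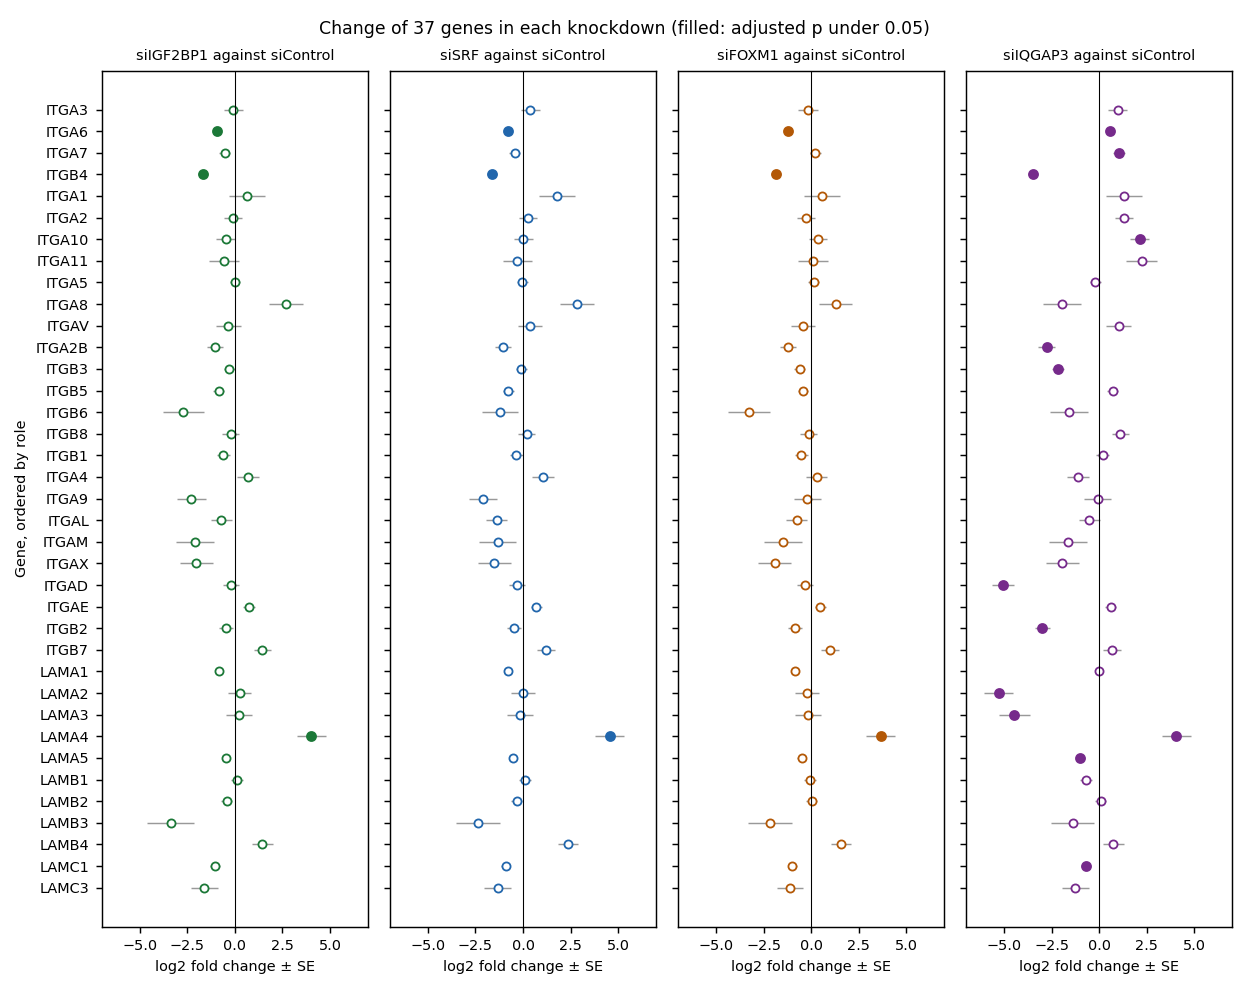
Log2 fold change against siControl with its SE for 37 of the 38 genes in each knockdown, where filled points have an adjusted p under 0.05. ITGA6 lies left of 0 in siIGF2BP1, siSRF and siFOXM1 and right of 0 in siIQGAP3, while ITGB4 lies left and LAMA4 right of 0 in all 4.

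Medians and groups without overlap gave the wider view. The median log2 fold change of the 38 was -0.47 in siIGF2BP1, -0.33 in siSRF, -0.29 in siFOXM1 and -0.36 in siIQGAP3, beside 0.010, 0.0081, -0.016 and -0.058 over all genes tested. With the third siControl, siIGF2BP1, siSRF and siFOXM1 libraries left out it was -0.52, -0.55, -0.39 and 0.20, so in siIQGAP3 it changed sign, and against siControl library 3 alone the siIQGAP3 median was -0.39. Between library 3 of each knockdown and of siControl, a description and no pairing, the median was -0.55 in siIGF2BP1 and -0.028 in siSRF. It was -0.68 in siFOXM1 and -0.45 in siIQGAP3. In siIGF2BP1 4 members lay above and 9 below every siControl library, where 17.3% of all genes did not overlap (7.74% above and 9.57% below). In siSRF it was 4 and 4 beside 14.2% of all genes (6.95% and 7.2%), and in siFOXM1 3 and 7 beside 15.7% (7.55% and 8.15%). In siIQGAP3 it was 13 and 12 beside 48.3% (25.2% and 23.1%).

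ITGA6, the laminin-binding alpha chain of both the ITGB1 and the ITGB4 receptor (chr2:172427354-172506282, plus strand, GRCh38), fell in siIGF2BP1, siSRF and siFOXM1 and rose in siIQGAP3. Its level was 76.3, 58.7 and 84.2 CPM in the siControl libraries. In siIGF2BP1 it was 39.1, 37.0 and 37.2 CPM, in siSRF 43.2, 41.9 and 41.1 and in siFOXM1 33.8, 31.7 and 29.2. In siIQGAP3 it was 114, 107 and 108 CPM. All libraries of the first 3 knockdowns lay below the lowest siControl library, and all of siIQGAP3 lay above the highest. The log2 fold change was -0.95 ± 0.13 (SE) in siIGF2BP1, -0.80 ± 0.13 in siSRF, -1.21 ± 0.13 in siFOXM1 and 0.59 ± 0.13 in siIQGAP3 (edgeR quasi-likelihood test, adjusted p = 0.00328, 0.00809, 9.85e-04 and 0.00537). Against siControl library 3 alone the siIQGAP3 value was 0.38 (adjusted p = 0.0730).

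ITGB4, the hemidesmosome chain that binds only ITGA6 (chr17:75721328-75757818, plus strand, GRCh38), fell in every knockdown and most in siIQGAP3, where ITGA6 rose. It measured 14.4, 10.97 and 14.3 CPM in siControl. The siIGF2BP1 libraries held 4.30, 4.32 and 3.80 CPM, those of siSRF 4.26, 4.14 and 4.24 and those of siFOXM1 2.67, 2.95 and 5.24. In siIQGAP3 ITGB4 was at 1.096, 1.097 and 1.32 CPM, below every library of the other groups. No knockdown overlapped siControl. The log2 fold change was -1.67 ± 0.26, -1.65 ± 0.26, -1.86 ± 0.26 and -3.49 ± 0.28 in siIGF2BP1, siSRF, siFOXM1 and siIQGAP3 (edgeR quasi-likelihood test, adjusted p = 0.00733, 0.00677, 0.00442 and 2.09e-05). In the first 3 knockdowns the calls of ITGA6 and ITGB4 depended on the spread being shared over all 5 groups. With only the 2 groups compared in the fit, the adjusted p was 0.201 and 0.148 in siIGF2BP1, 0.339 and 0.172 in siSRF, and 0.145 and 0.272 in siFOXM1. Few genes of any kind passed in that setting, 0.0228%, 0.00569% and 0.0395% of all genes in siIGF2BP1, siSRF and siFOXM1. Leaving out 1 library also ended 2 calls, that of ITGB4 without siIGF2BP1 library 1 (adjusted p = 0.0504) and that of ITGA6 without siSRF library 2 (adjusted p = 0.0532).

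**Figure D4:**
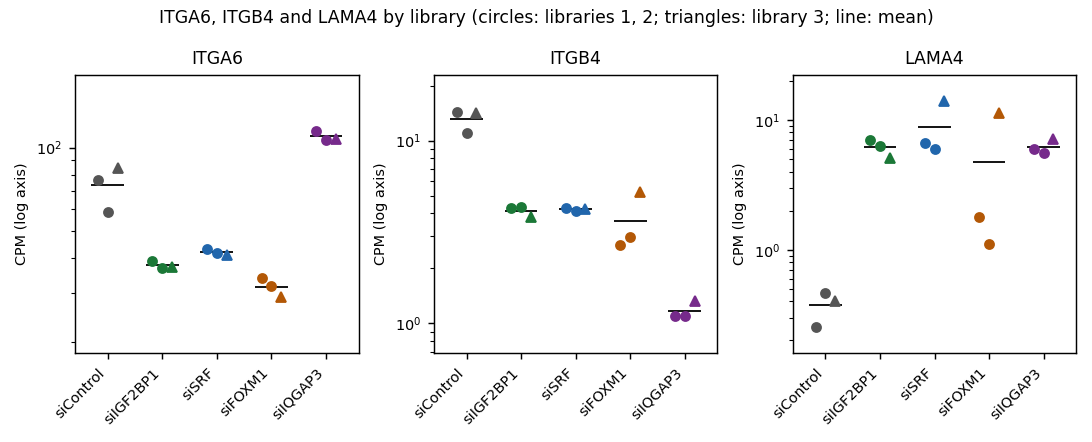
Level of ITGA6, ITGB4 and LAMA4 in every library, in CPM on a log axis, where circles are libraries 1 and 2, triangles library 3 and the line the group mean. ITGB4 lies at 14.4 CPM or less in siControl and at 1.32 or less in siIQGAP3, and LAMA4 in siControl stays at or under 0.462 CPM.

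ITGA7 and ITGA3 are further laminin-binding alpha chains. ITGA7, the laminin receptor chain known from muscle, rose in siIQGAP3, from 35.5, 33.5 and 57.2 to 87.8, 87.4 and 86.2 CPM (log2 fold change 1.05 ± 0.31, edgeR adjusted p = 0.0214). Each siIQGAP3 library lay above every siControl library. That call was lost when any siControl or siIQGAP3 library other than siControl library 3 was left out (adjusted p of 0.0538 to 0.0952), and against siControl library 3 alone the value was 0.61 (adjusted p = 0.445). ITGA3, whose chain binds the laminins of epithelia, passed in no comparison, with 55.1 to 74.5 CPM in siControl and 122 to 123 in siIQGAP3. ITGB1, the chain that most of these alpha chains share, measured 234, 202 and 528 CPM in siControl. It was 169 to 285 CPM in siIGF2BP1, 193 to 369 in siSRF, 209 to 244 in siFOXM1 and 350.3 to 372 in siIQGAP3. All of these overlapped the wide siControl range, and no comparison of ITGB1 with siControl passed (adjusted p = 0.439, 0.728, 0.630 and 0.721).

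Among the laminin alpha chains, LAMA4 (chr6:112108760-112254939, minus strand, GRCh38) rose in every knockdown from a low level. Its siControl libraries held 10, 17 and 19 counts, which is 0.255, 0.462 and 0.405 CPM. It reached 7.02, 6.31 and 5.10 CPM in siIGF2BP1 and 6.59, 5.92 and 14.0 in siSRF. The siFOXM1 libraries had 1.77, 1.098 and 11.3 CPM and the siIQGAP3 libraries 6.0, 5.57 and 7.07. Every knockdown library lay above every siControl library, and in siSRF and siFOXM1 library 3 was far above the other 2. The log2 fold change was 4.03 ± 0.77, 4.55 ± 0.79, 3.65 ± 0.76 and 4.04 ± 0.77 in siIGF2BP1, siSRF, siFOXM1 and siIQGAP3 (edgeR quasi-likelihood test, adjusted p = 0.0220, 0.0115, 0.0412 and 0.00251). Against siControl library 3 alone the siIQGAP3 value was 3.93 (adjusted p = 0.0882). With the third siControl, siIGF2BP1, siSRF and siFOXM1 libraries left out, the siFOXM1 log2 fold change was 1.98, and without siFOXM1 library 3 it was 1.95 (adjusted p = 0.0451). The call was lost without siControl library 1 in siIGF2BP1, siSRF and siFOXM1 (adjusted p = 0.0876, 0.0629 and 0.148), without siIGF2BP1 library 1 or 2 (0.0944 and 0.0868) and, in siFOXM1, without siControl library 2 (0.0780) or with limma-voom (0.166). With only the 2 groups compared it was lost in all of these 3 knockdowns (adjusted p = 0.0577, 0.0976 and 0.458). In that setting 0.0228%, 0.00569% and 0.0395% of all genes passed in siIGF2BP1, siSRF and siFOXM1. DESeq2 gave no adjusted p for LAMA4, so it neither kept nor lost these calls.

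LAMA2 and LAMA3 fell in siIQGAP3, and siControl library 3 shared much of that low level. LAMA2 was at 117, 142 and 7.26 CPM in siControl and at 2.38, 2.05 and 2.31 in siIQGAP3. In siIGF2BP1 it held 96.1, 95.9 and 123 CPM, in siSRF 85.2, 87.4 and 89.7 and in siFOXM1 74.1, 74.4 and 78.0. So 11 of the 12 libraries outside siIQGAP3 had 74.1 CPM or more, and siControl library 3 alone had 7.26. The log2 fold change in siIQGAP3 was -5.30 ± 0.77 (edgeR adjusted p = 6.21e-04) against the 3 siControl libraries and -1.68 (adjusted p = 1.52e-04) against siControl library 3 alone. LAMA3 followed the same course, with 49.4, 59.8 and 2.82 CPM in siControl and 1.56, 1.79 and 1.73 in siIQGAP3. It was at 35.1 to 57.0 CPM in siIGF2BP1, 30.9 to 37.0 in siSRF and 22.3 to 51.3 in siFOXM1. Its log2 fold change in siIQGAP3 was -4.46 ± 0.81 (edgeR adjusted p = 0.00193), but -0.73 (adjusted p = 0.342) against siControl library 3 alone, and limma-voom did not call it (adjusted p = 0.0667). In siIGF2BP1, siSRF and siFOXM1 LAMA2 passed in none (log2 fold change 0.24 ± 0.63, -0.021 ± 0.63 and -0.23 ± 0.63).

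LAMA5, the alpha chain of the laminin named above for pluripotent cells, fell in siIQGAP3 from 629, 712 and 389 to 314, 277 and 269.7 CPM (log2 fold change -1.01 ± 0.23, edgeR adjusted p = 0.00689). The siIQGAP3 libraries had the highest sum of the 10 pluripotency genes, 4842 to 4976 CPM. The lowest sum, 235 CPM, was in siFOXM1 library 3, where LAMA5 was at 272 CPM. All siIQGAP3 libraries were below all siControl libraries, but against siControl library 3 alone the value was -0.44 (adjusted p = 0.341). LAMA1, the alpha chain of early embryonic basement membranes, lay below every siControl library in siIGF2BP1, siSRF and siFOXM1 without passing (log2 fold change -0.84 ± 0.20, -0.77 ± 0.20 and -0.87 ± 0.20, edgeR adjusted p = 0.0658, 0.0855 and 0.0674). In siIQGAP3 LAMA1 was at 88.9 to 102 CPM, within the siControl range of 81.6 to 121.

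LAMC1, the gamma chain of most laminins, was at 685, 548 and 1171 CPM in siControl. It measured 339.9 to 463 CPM in siIGF2BP1, 369 to 533 in siSRF, 370.4 to 427 in siFOXM1 and 518, 476 and 486 in siIQGAP3. No knockdown overlapped siControl. Only siIQGAP3 passed (log2 fold change -0.70 ± 0.25, edgeR adjusted p = 0.0471), and LAMC1 missed the threshold at larger values in siIGF2BP1, siSRF and siFOXM1 (-1.05 ± 0.25, -0.92 ± 0.25 and -0.99 ± 0.25, adjusted p = 0.0585, 0.0937 and 0.0858). The siIQGAP3 call was lost in 9 of 15 other settings and the value was -0.32 without siControl library 3, so LAMC1 is not shown to differ between the knockdowns.

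LAMB3, a beta chain that joins LAMA3 in the laminin of epithelia, had large fold changes and a large spread. LAMB3 was at 6.62, 5.02 and 20.2 CPM in siControl, 0.252, 0.251 and 2.53 in siIGF2BP1 and 0.401, 0.421 and 5.38 in siSRF. It was 0.927, 0.889 and 5.22 CPM in siFOXM1 and 3.62, 4.47 and 3.91 in siIQGAP3. The log2 fold change of LAMB3 was -3.38 ± 1.22 in siIGF2BP1 with an edgeR adjusted p of 0.215, and every siIGF2BP1 library lay below siControl. The summed level of 7 epithelial markers, CDH1 and keratins among them, was 2097, 1314 and 3292 CPM in the siControl libraries, 195, 220.4 and 1131 in siIGF2BP1, 205, 220.2 and 2444 in siSRF, 3207, 3160.3 and 1061 in siFOXM1 and 3790.0 to 4057 in siIQGAP3, with no marker at 0 in any library. Gene by gene, 5, 3, 2 and 2 of the 7 fell and 0 rose in siIGF2BP1, siSRF, siFOXM1 and siIQGAP3. Over all genes 1.33%, 1.2%, 0.832% and 21.7% fell there, so the count in siIQGAP3 is near the background. The median log2 fold change of the 7 was -2.71, -2.67, -2.11 and 0.40. In siIQGAP3, where the summed level of these markers was highest, LAMA3 and ITGB4 were at their lowest, 1.56 to 1.79 and 1.096 to 1.32 CPM. The part of these markers in the levels of LAMB3, LAMA3 and ITGB4 was not tested.

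LAMB1, the beta chain with the highest level, measured 503, 516 and 210.0 CPM in siControl and 247 to 258 in siIQGAP3, and no comparison with siControl passed. It was at 368 to 562 CPM in siIGF2BP1, 350.4 to 609 in siSRF and 387 to 402 in siFOXM1. LAMB1 was thus lowest in siControl library 3 and siIQGAP3, the libraries with the highest sum of the pluripotency genes. LAMB2, LAMB4 and LAMC3 passed nowhere against siControl either. LAMB4 was scarce, between 0.0866 and 1.36 CPM in all 15 libraries, with 6, 8 and 6 counts in siControl. In siIGF2BP1, siSRF and siFOXM1 it lay above every siControl library. Its log2 fold change there was 1.44 ± 0.55, 2.36 ± 0.55 and 1.57 ± 0.55 (edgeR adjusted p = 0.239, 0.0529 and 0.230).

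**Figure D5:**
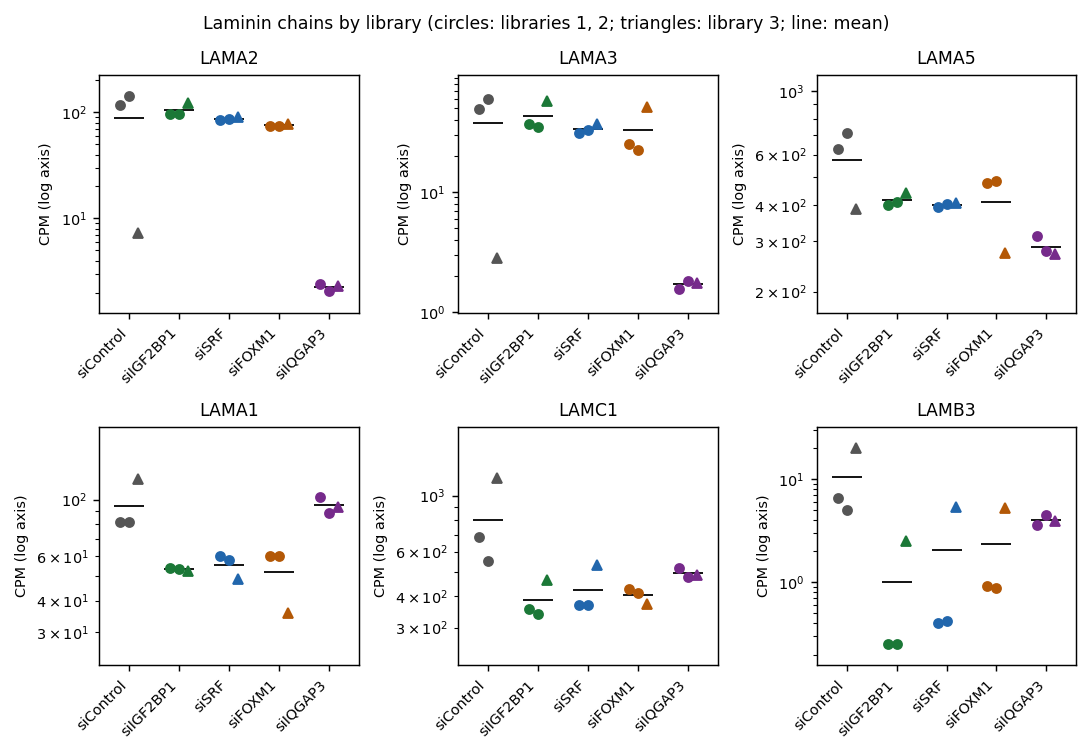
Level of laminin chains in every library, in CPM on a log axis, where circles are libraries 1 and 2, triangles library 3 and the line the group mean. For LAMA2 and LAMA3 the triangle of siControl lies near the siIQGAP3 libraries and far from the other siControl libraries.

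The collagen receptors ITGA1, ITGA2, ITGA10 and ITGA11 lay above every siControl library in siIQGAP3, and 1 of the 4 passed. Over all genes 25.2% lay above siControl there and 10.8% were called higher, so 1 call is no result about these receptors as a group. Between library 3 of siIQGAP3 and of siControl, a description and no pairing, their log2 differences were 0.31, 0.45, 1.52 and 1.64. For libraries 1 and 2 they were 2.23, 2.01, 2.58 and 2.66. ITGA10, known from cartilage, rose from 0.790, 0.380 and 1.30 to 3.34, 3.78 and 3.83 CPM (log2 fold change 2.14 ± 0.50, edgeR adjusted p = 0.00725). Against siControl library 3 alone its value was 1.49 (adjusted p = 0.176). ITGA11, a receptor of fibrillar collagen on fibroblasts, and ITGA2 narrowly missed, at 2.23 ± 0.82 and 1.29 ± 0.48 on the log2 scale (adjusted p = 0.0523 and 0.0557). None of the 4 passed in siIGF2BP1, siSRF or siFOXM1, where the log2 fold changes ran from -0.56 to 1.77.

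Among the chains that bind the RGD motif of fibronectin, vitronectin and fibrinogen, 2 of 8 fell in siIQGAP3 and none passed in the other knockdowns. Since 21.7% of all genes fell in siIQGAP3, that count is near the background and is no result about these chains as a group. They were ITGA2B and ITGB3, which form the fibrinogen receptor of platelets. ITGA2B was at 8.15, 8.31 and 26.1 CPM in siControl and 2.33, 2.08 and 1.90 in siIQGAP3, and ITGB3 at 3.39, 2.99 and 1.94 and 0.767, 0.635 and 0.413 CPM. The groups did not overlap for either gene. The log2 fold change was -2.75 ± 0.45 for ITGA2B and -2.19 ± 0.31 for ITGB3 (edgeR adjusted p = 0.00115 and 5.89e-04). Both were also called against siControl library 3 alone. ITGB3 also pairs with ITGAV.

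The abundant RGD-binding chains did not pass. ITGA5 measured 263, 328 and 197 CPM in siControl and 205 to 382, 205 to 356, 253 to 307 and 223 to 232 CPM in siIGF2BP1, siSRF, siFOXM1 and siIQGAP3. ITGAV, the vitronectin receptor chain, was at 96.8, 78.1 and 166 CPM in siControl, 55.1 to 153 in siIGF2BP1, 61.2 to 309 in siSRF, 49.9 to 152 in siFOXM1 and 219 to 246 in siIQGAP3. Its partner ITGB5 was at 76.2, 69.7 and 142 CPM in siControl, 46.9 to 61.9 in siIGF2BP1, 45.3 to 77.8 in siSRF, 54.7 to 80.4 in siFOXM1 and 151 to 158 in siIQGAP3. In siIQGAP3 all libraries of ITGAV and ITGB5 were above siControl (adjusted p = 0.240 and 0.0739). The rare chains had larger fold changes from few counts. ITGA8, known from kidney mesenchyme, was at 0.560, 0.489 and 0.299 CPM in siControl and 3.80, 4.22 and 0.559 in siIGF2BP1 (log2 fold change 2.67 ± 0.90, edgeR adjusted p = 0.180). It was 4.66, 4.26 and 0.743 CPM in siSRF, 0.503, 0.366 and 2.39 in siFOXM1 and 0.0822, 0.0866 and 0.165 in siIQGAP3, so library 3 was the low one in siIGF2BP1 and siSRF and the high one in siFOXM1. ITGB6, a chain of epithelia, had 12, 4 and 47 counts in siControl and 0, 0 and 6 in siFOXM1 (log2 fold change -3.26 ± 1.12, edgeR adjusted p = 0.223). In siIGF2BP1 ITGB6 had 1, 1 and 7 counts, in siSRF 5, 8 and 13 and in siIQGAP3 2, 7 and 8. ITGB8, which activates TGF-beta, passed nowhere against siControl.

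The leukocyte chains were scarce, and 2 of 7 fell in siIQGAP3, a count near the background of 21.7% of all genes. ITGB2, the beta chain of leukocyte integrins, was at 1.58, 1.93 and 2.77 CPM in siControl and 0.219, 0.289 and 0.275 in siIQGAP3 (log2 fold change -2.99 ± 0.41, edgeR adjusted p = 4.51e-04). ITGAD, an alpha chain of ITGB2, had 55, 66 and 40 counts in siControl and 2, 2 and 0 in siIQGAP3 (log2 fold change -5.06 ± 0.57, edgeR adjusted p = 1.33e-04). ITGB2 lay at 0.931 to 2.06 CPM in siIGF2BP1, 0.896 to 1.91 in siSRF and 1.001 to 1.40 in siFOXM1, and ITGAD at 1.08 to 1.25, 0.918 to 1.34 and 1.04 to 1.11. ITGAL, ITGAM, ITGAX, ITGAE and ITGB7 passed in no comparison with siControl. The blood cell markers PTPRC and CD3E reached at most 0.150 and 0.107 CPM in any library and were at 0 in 5 and 9 of the 15 libraries, and HBB was at 0 in 12. The 10 blood markers summed to 23.6 to 32.3 CPM in siControl and 7.40 to 8.49 in siIQGAP3, and to 10.6 to 19.2, 9.80 to 22.4 and 10.8 to 12.0 in siIGF2BP1, siSRF and siFOXM1. The part of these in the fall of ITGB2 and ITGAD was not tested. ITGA4 and ITGA9, which bind VCAM1 and other ligands, passed nowhere against siControl. ITGA4 was at 59.8, 63.0 and 12.0 CPM in siControl, where library 3 was the low one.

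The knockdowns were also compared directly. Between siIGF2BP1 and siSRF 0 of 38 members passed by edgeR, 0 had an unadjusted p under 0.05, and DESeq2 and limma-voom called 0. The background by edgeR was 0.00533% of all genes, and 0.283% had an unadjusted p under 0.05. The log2 difference, siIGF2BP1 minus siSRF, was -0.16 ± 0.13 for ITGA6, -0.025 ± 0.26 for ITGB4 and -0.52 ± 0.66 for LAMA4. Between siIGF2BP1 and siFOXM1 0 of 38 passed by edgeR where 0.0107% of all genes did, and DESeq2 and limma-voom called 0. An unadjusted p under 0.05 was found for 2 (ITGA7 and ITGA9), beside 4.84% of all genes. There the log2 difference was 0.26 ± 0.13 for ITGA6, 0.19 ± 0.26 for ITGB4 and 0.37 ± 0.66 for LAMA4. Missing the threshold does not show that these levels are equal. With the third libraries left out, siIGF2BP1 and siFOXM1 differed in 23 members, beside 55.0% of all genes.

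Between siIGF2BP1 and siIQGAP3 19 of 38 members passed, 50% beside 49.9% of all genes, with 10 higher in siIGF2BP1 (28% of all genes) and 9 lower (22%). Lower in siIGF2BP1 were ITGA6 (-1.54 ± 0.13 on the log2 scale, edgeR adjusted p = 2.45e-05), LAMA1, ITGA7, ITGB5, ITGB8, ITGA9, ITGA2, ITGA10 and ITGA11. Higher were ITGB4 (1.82 ± 0.27, adjusted p = 4.89e-04), LAMA2 (5.54 ± 0.78, adjusted p = 3.94e-04), LAMA3, LAMB1, ITGA2B, ITGB3, ITGB2, ITGAD, ITGA4 and ITGA8. So ITGA6 and ITGB4, partners in 1 receptor, differed between these knockdowns in opposite directions. The contrast itself uses no siControl library, though these libraries enter the shared estimate of the spread, and the call held for ITGA6, ITGB4, LAMA2 and LAMA3 under all 14 alternatives tried. The calls of LAMB1, ITGA2, ITGA4, ITGA9, ITGA11 and ITGB8 were lost in 2 to 9 of the alternatives. LAMA4 did not pass here (-0.017 ± 0.66, adjusted p = 0.984).

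The rest of the adhesion machinery was read from 3 lists. Their counts in siIQGAP3 stand beside 10.8% of all genes that rose and 21.7% that fell there. In siIGF2BP1, siSRF and siFOXM1 edgeR called 1.62%, 1.57% and 1.12% of all genes. An unadjusted p under 0.05 was found for 15.1%, 14.5% and 12.5% of all genes. DESeq2 called 5.92%, 6.14% and 4.65% of all genes, and limma-voom 1.31%, 1.55% and 1.12%. Of 16 basement membrane partners and laminin receptors, such as collagen IV chains, nidogens and dystroglycan, 0 passed by edgeR in siIGF2BP1, siSRF or siFOXM1, where 6, 2 and 2 had an unadjusted p under 0.05, DESeq2 called 1, 0 and 1 and limma-voom 0 in each. In siIQGAP3 COL4A6, a collagen IV chain, rose (1.30 ± 0.44, adjusted p = 0.0390) and AGRN, which binds laminin and dystroglycan, fell (-0.76 ± 0.16, adjusted p = 0.00353). The median log2 fold change of the list was -0.78, -0.57, -0.22 and 0.29 in siIGF2BP1, siSRF, siFOXM1 and siIQGAP3. Of 19 other integrin ligands tested, CDH1, the epithelial cadherin that ITGAE binds, fell in each knockdown (-4.35 ± 0.62, -4.66 ± 0.63, -4.59 ± 0.62 and -3.01 ± 0.58, adjusted p = 0.00419, 0.00263, 0.00387 and 0.00262). No other ligand passed in siIGF2BP1, siSRF or siFOXM1. In siIQGAP3 3 ligands rose (CCN2, MFGE8 and THBS2) and 6 fell (CDH1, VCAM1, NPNT, ICAM3, COL1A2 and TGFB1). VCAM1, the ligand of the ITGA4 receptor, had the largest fall (-5.02 ± 0.78, adjusted p = 9.28e-04), and CCN2, a matricellular ligand, the largest rise (3.61 ± 0.72, adjusted p = 0.00324). The median log2 fold change of the list was -0.20, 0.31, -0.00098 and 0.66.

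The third list held 29 adaptors and kinases that join integrins to actin, such as talins, kindlins, FLNA and PTK2. By edgeR 0 of them passed in siIGF2BP1, siSRF or siFOXM1. There 5, 5 and 3 had an unadjusted p under 0.05, beside 15.1%, 14.5% and 12.5% of all genes. DESeq2 called 1, 2 and 0, beside 5.92%, 6.14% and 4.65% of all genes, and limma-voom 0 in each. In siIQGAP3 LIMS2, a partner of integrin-linked kinase, rose (1.93 ± 0.63, adjusted p = 0.0342). SHARPIN, an inhibitor of integrin activation, fell (-0.87 ± 0.22, adjusted p = 0.0115), as did the kinase PTK2B and the tensin TNS2. For NPNT, ICAM3, COL1A2 and TNS2 siControl library 3 lay below every siIQGAP3 library, so the siIQGAP3 libraries lay below siControl libraries 1 and 2 and above library 3. Of the 15 genes of the 3 lists called in siIQGAP3, CDH1, VCAM1 and PTK2B passed in the same direction against siControl library 3 alone and the others did not pass. The median log2 fold change of the list was -0.35, -0.28, -0.067 and 0.19.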

How the data were processed

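Paired reads of 100 bases were taken from 15 libraries, per the labels' protocols. The submitters' processing notes name GRCh37 as the build and STAR, SAMtools and featureCounts as tools. Their versions, the annotation and the strand setting are not given in the sources used here. Raw counts were deposited by the authors for each gene symbol, and these were tested. They also deposited a normalised table, a signal of counts scaled per library, and all 38 members there were proportional to their counts (tolerance 1e-06), so it was not tested again.

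Genes were kept by filterByExpr and scaled by TMM, and all 15 libraries entered 1 fit by group, with 10 residual degrees of freedom, for the quasi-likelihood F test of edgeR 4.0.16 under R 4.3.3. P-values were adjusted by Benjamini-Hochberg over 18760 genes, with a threshold of 0.05, and the SE comes from the same fit. CPM are counts over the TMM-scaled library size. Library totals were 35275570 to 44996064 counts. The fit was tested on simulated data with 200 changed genes. Those data had the same fixed spread for every gene and no library that stood apart. They therefore cannot show how the test behaves on these libraries. Alternatives were DESeq2 1.42.0, limma-voom (limma 3.58.1), other scaling and filters, a fit of only the 2 groups, libraries left out, and, added after seeing the data, siControl library 3 alone as control. Values of each library are given for members that passed against siControl, the 3 most abundant of each family and the 3 with the largest fold change per comparison. Values of 1 member, which passed in no comparison, are not reported here. The members, lists and tests were chosen with earlier results of these data known. Lengths come from GENCODE v29 and promoters from RefSeq, both on GRCh38, since no GRCh37 genome was used here. Antisense rows had at most 43 counts in any library (LAMC1-AS1), and 0 or 1 for LAMA4-AS1; without the strand setting, reads of a gene and its antisense partner cannot be told apart.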

Additional observations from a re-analysis of the deposited data

How the results depend on the processing

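Over the 582 recomputed values of genes called in the main comparisons, 514 kept their call, 68 lost it and 0 changed direction. The number of members called depended on the test and on the third libraries. DESeq2 called 8 in siIGF2BP1, 8 in siSRF and 5 in siFOXM1 in place of 3, beside 5.92%, 6.14% and 4.65% of all genes, and gave no adjusted p for ITGA1, ITGA11 and LAMA4. With only the 2 groups in the fit 0 were called in each of these 3, beside 0.0228%, 0.00569% and 0.0395% of all genes. There 12, 10 and 8 members had an unadjusted p under 0.05, beside 8.05%, 6.55% and 6.86% of all genes. With the third siControl, siIGF2BP1, siSRF and siFOXM1 libraries left out, 30, 29 and 27 members were called in siIGF2BP1, siSRF and siFOXM1 and 31 in siIQGAP3. In that setting siIGF2BP1 differed in 23 members from siFOXM1 and in 32 from siIQGAP3, beside 55.0% and 83.0% of all genes. Against siControl library 3 alone, where the lone library is assumed to vary like the other groups, 8 members were called in siIQGAP3, all lower, of which 7 are among the 13. Those lost were ITGA6 (0.38 on the log2 scale, adjusted p = 0.0730), ITGA7, ITGA10, LAMA3, LAMA4 (adjusted p = 0.0882) and LAMA5. Leaving out 1 library gave 1 to 6 members called in siIGF2BP1 (the fewest without siIGF2BP1 library 1, the most without siControl library 2), 2 to 5 in siSRF and 2 to 5 in siFOXM1 (the most in both without siControl library 3). It gave 11 to 19 in siIQGAP3 (the most without siControl library 3), and for siIGF2BP1 0 to 0 against siSRF, 0 to 1 against siFOXM1 and 14 to 21 against siIQGAP3. Over the same fits the share of all genes called ran from 0.351% to 3.05% in siIGF2BP1, 0.540% to 6.71% in siSRF, 0.357% to 8.16% in siFOXM1 and 18.5% to 56.5% in siIQGAP3, and from 36.7% to 46.7% between siIGF2BP1 and siIQGAP3. For siIGF2BP1 it was 0.00524% to 0.00525% against siSRF and 0.0105% to 1.08% against siFOXM1. LAMC1 in siIQGAP3 and LAMB1 between siIGF2BP1 and siIQGAP3 lost their calls in 9 alternatives each. No paired analysis was possible because the columns carry no replicate numbers. Depth limits genes such as LAMA4, ITGAD and ITGB6, which had under 20 counts in the libraries of at least 1 group.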
